A study of Mus musculus with 14 samples.

Results

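Amphiregulin-expressing T cells were examined in the 5 nodules whose B cell receptors had been profiled (BCR nodules). A cell was taken from the raw unique molecular identifier (UMI) counts when it held at least 1 UMI of Areg and at least 1 UMI of Cd3d, Cd3e or Cd3g. It also had to hold no UMI of Foxp3, Cd8a, Cd8b1, Cd79a, Cd79b or Ms4a1, and at most 10% mitochondrial UMIs. The rule kept 956 cells, of 53185 deposited cells in the BCR nodules and 77442 in the whole series. The members were thus chosen by their own measured UMIs of Areg and of the T cell and B cell genes, and those values are given as a description. Without the Areg limit, the same gate held 5167 T cells.

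All nodules were white nodules from Eif3e fl/fl Cγ1Cre mice on a C57BL/6J background, in which the Ig γ1 locus drives Cre in activated B cells, so that T cells were not the intended target. The nodules of mice 29, 31 and 34 also carried the Rosa26-YFP reporter. Each mouse gave 1 RNA library: mouse 27 from liver at 12 months, mouse 29 from lung at 12 months, mouse 31 from spleen at 13 months, mouse 33 from thymus at 16 months, and mouse 34 from lung and thymus at 9 months. The mouse 34 sample thus covers lung and thymus, and each sample is called a nodule here for short. The study describes the mouse 27 sample as a secondary tumor grown after transplantation of a primary nodule, and its transplantations used Rag2-/- recipients, so whether the labelled tissue and age are those of the donor or the recipient is not settled here. The other RNA libraries came from T cell receptor-profiled (TCR) nodules of mouse 30, liver, 14 months, and mouse 32, spleen, 12 months, of which mouse 32 carried the reporter. No nodule-free tissue was sampled, tissue and mouse cannot be told apart, and the mouse was the replicate throughout. Values by mouse are given below in the order 27, 29, 31, 33 and 34.

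Amphiregulin is a secreted ligand of the epidermal growth factor receptor, made as a membrane-bound precursor and released by cleavage. Regulatory T cells, type 2 helper T cells and group 2 innate lymphoid cells are known to make it in barrier tissues, often after the alarmin IL-33 has bound its receptor ST2, encoded by Il1rl1. In those tissues it is known for a part in epithelial repair that does not depend on antigen. In T cells its transcription is also known to rise with cyclic AMP, the second messenger that acts through CREB and related factors at the cyclic AMP response element.

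Areg (ENSMUSG00000029378) lies on the plus strand of chromosome 5 at 91139599 to 91148432 (RefSeq, GRCm38.p6). The 250 bases before its start, chr5:91139349-91139598, hold 1 full palindromic cyclic AMP response element, TGACGTCA, which begins 61 bases before the start. The window is shown because a group of cyclic AMP-response genes is described further on, with the element in capitals:
Areg: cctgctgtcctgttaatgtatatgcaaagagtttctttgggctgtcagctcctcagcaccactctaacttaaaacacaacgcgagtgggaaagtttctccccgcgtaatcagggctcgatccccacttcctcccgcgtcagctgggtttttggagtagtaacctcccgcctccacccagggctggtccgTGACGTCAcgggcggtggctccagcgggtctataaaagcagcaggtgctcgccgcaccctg
The same letters, which read alike on both strands, stood in the matching window of 478 of 27025 genes, or 1.77%. A match describes letters and not a bound site.

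The nodules gave 62, 443, 146, 243 and 62 such cells, so that mouse 29 (lung) alone supplied 443 of the 956. They made up 19.1%, 20.3%, 28.3%, 13.8% and 15.8% of the T cells of the gate, a mean of 19.5% ± 5.59 (SD, n = 5). The spleen nodule of mouse 31 had the highest share, with an exact binomial interval of 24.5% to 32.5%, and the thymus nodule of mouse 33 the lowest, 12.2% to 15.5%. Of all cells that passed the mitochondrial limit they were 0.66% to 3.15%. In the TCR nodules, the same rule found 1498 and 1691 cells, 22.0% and 24.4% of the gate in mice 30 and 32. Intervals here cover counting error only, since reads of a cell and cells of a mouse are not independent.

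Areg was at 1597, 1373, 1958, 1445 and 1021 CPM, the gene's UMIs scaled to 1000000 UMIs of the summed cells, in the summed Areg-positive T cells. One Areg UMI was found in 400 of these cells, 2 in 186, and 3 or more in 370, with 78 UMIs in the highest cell. The Areg-positive T cells together held 3775 of the 9695 Areg UMIs counted in the BCR nodules, from 27.5% in mouse 29 to 58.1% in mouse 33. The rest lay in cells outside the rule.

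**Figure D1:**
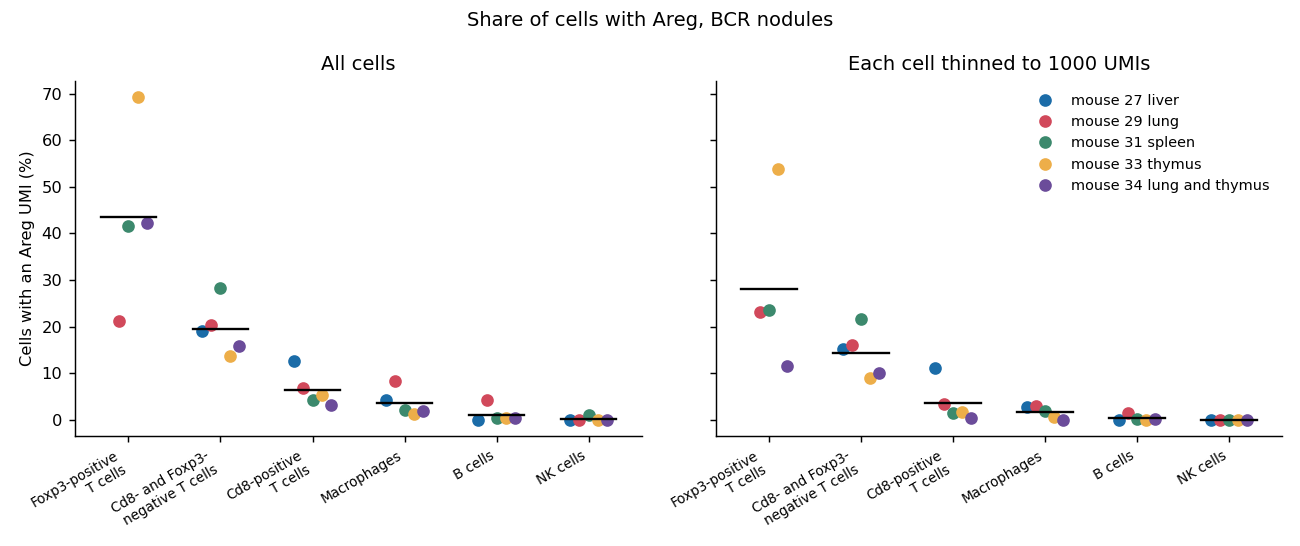
Share of cells with at least 1 Areg UMI (%) in 6 cell gates of the BCR nodules, 1 point per mouse with the mean as a line, for all cells (left) and with each cell thinned to 1000 UMIs (right). The Foxp3-positive gate has 4 mice because mouse 27 held no such cell. T cells without Cd8 or Foxp3 UMIs lie at 13.8% to 28.3%, and B cells at 0.0962% to 4.36%.

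Among the other cells of the BCR nodules, Areg was found in 43.6% ± 19.7 (SD, n = 4) of Foxp3-positive T cells, of which there were 108 in all and none in mouse 27. By mouse that share was 21.2%, 41.7%, 69.2% and 42.3%, so that mouse 29 was close to its other T cells. Epithelial cells, 189 in all, were at 20.6% ± 24.5 (SD, n = 5), a mean that rests on few cells in some mice. By mouse, Areg was found in 0 of 22, 18 of 143, 0 of 11, 2 of 6 and 4 of 7 epithelial cells, 24 in all. Cd8-positive T cells were at 6.48% ± 3.73 (SD, n = 5) and macrophages at 3.64% ± 2.84 (SD, n = 5). Areg was found in 1 of 150 natural killer cells.
B cells were at 1.13% ± 1.81 (SD, n = 5), with 4.36% in mouse 29. Whether the Areg in them was free RNA or their own was not tested. The median depth of B cells was 5192 to 8700 UMIs by mouse, against 1359 to 3026 UMIs in the T cells of the gate. The share in the T cells exceeded that in the deeper B cells in every nodule. With each cell thinned to 1000 UMIs and shallower cells left out, the T cells of the gate were at 14.4% ± 5.06 (SD, n = 5), Foxp3-positive T cells at 28.0% ± 18.1 (SD, n = 4) and B cells at 0.396% ± 0.678 (SD, n = 5). Epithelial cells were then at 7.70% ± 8.45 (SD, n = 5).

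The T cell label was checked against genes the rule did not use. A UMI of Trac, Trbc1 or Trbc2, the constant segments of the αβ T cell receptor, was present in 72.6%, 40.9%, 62.3%, 62.6% and 74.2% of the Areg-positive T cells, against 42.0%, 35.8%, 64.8%, 71.7% and 66.1% of the Areg-negative T cells of the gate. Cd4 was found in 252 of the 956 cells, 17.4% to 46.8% by mouse, and UMIs of the γ or δ constant segments in 26. The label rests most weakly on mouse 29, where 60.5% of the cells had entered on a single Cd3 UMI. In the other 4 nodules that share was 19.4% to 30.1%.

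Just outside the rule lay 1170 cells with Areg that met every limit but had no Cd3 UMI, 1026 of them in mouse 29. Of these 1170 cells, 17.3% held a Trac or Trbc UMI, against 39.3% of the members with 1 Cd3 UMI and 64.2% of those with more. At the Areg limit the members with 1 Areg UMI and those with more were alike in this measure, at 52.5% and 54.9%, beside 54.0% of the Areg-negative cells of the gate. Cells with Gata3 and Il1rl1 but no Cd3 UMI, the pattern of group 2 innate lymphoid cells, numbered 137 in the BCR nodules. Of these, 132 were in mouse 29, and Areg was found in 70 of those 132.

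Of the 956 cells, 68 shared a cell barcode with another RNA library of the series, 1 held a B cell receptor call, and 50 held 3 or more UMIs of epithelial, macrophage, mast cell or neutrophil genes. One cell of mouse 29 held 11757 UMIs of Scgb1a1, the secretoglobin of airway club cells, of the 11812 found in the Areg-positive T cells of that nodule.

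For the main comparison, the UMIs of the Areg-positive T cells of each mouse were summed and set against those of Areg-negative T cells of the same gate and mouse, matched on total UMIs (955 Areg-positive cells, 62 to 443 a mouse, and 2749 Areg-negative cells, 153 to 1322 a mouse). The test was edgeR's quasi-likelihood test with mouse as a block, on genes the rule had not used. Of 8517 genes tested, 83 passed an adjusted p of 0.05 (0.975% of those tested). In the Areg-positive T cells, 46 rose (0.54%) and 37 fell (0.434%). Matching left mouse 27 uneven, with a median of 2172 UMIs in the positive and 1784 in the negative cells. DESeq2 split its calls differently, with 35 higher and 16 lower. Genes named for the size of their change were also chosen for 1 direction in every mouse. Their counts of mice are thus a description. The gene lists used below were chosen with earlier results of these data known, so counts of calls in them are a description too.

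Type 2 genes were higher in the Areg-positive T cells. Of the 7 tested genes of a T helper 2 list, 3 rose and none fell: Gata3, the lineage factor of type 2 T cells and group 2 innate lymphoid cells, Il1rl1 and Il13, a type 2 cytokine. Over all genes tested, 0.54% rose. All 7 fitted differences were positive, with a median of 1.02 on the log2 scale beside -0.0018 over all genes tested. The group 2 innate lymphoid cell list shared those 3 called genes, with 7 tested and a median of 0.94, and its summed level was 409 to 1013 CPM in the Areg-positive and 317 to 532 CPM in the Areg-negative T cells, higher in 5 of 5 mice. The part of such lymphoid cells in the result was not tested beyond the limits on Trac and Trbc given below.

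Gata3 was at 17.99, 212, 306, 134 and 92.8 CPM in the Areg-positive and at 15.0, 143, 132, 43.3 and 62.4 CPM in the Areg-negative T cells. It was higher in 5 of 5 mice, with the lowest levels in mouse 27, and the levels of the groups overlapped across mice. Its log2 fold change was 1.02 ± 0.17 (SE, edgeR adjusted p = 0.00846, n = 5).
Il1rl1 was at 0, 81.7, 53.3, 48.2 and 16.4 CPM in the Areg-positive and at 2.5, 34.9, 4.52, 1.18 and 1.84 CPM in the Areg-negative T cells. It rose by 2.43 ± 0.46 on the log2 scale (SE, edgeR adjusted p = 0.0214, n = 5), higher in 4 of 5 mice.
The gene was carried by few cells. Only 65 of the 956 cells held an Il1rl1 UMI, 44 of them in mouse 29, and 32 of the 65 also held a Trac or Trbc UMI.
Il13 rested on 51 UMIs in 18 cells, against 11 UMIs in 9 matched negative cells. Most of the 51 came from mouse 33, with 18 in its cells led by the T cell receptor segment Trbv20 and 16 in its other Areg-positive cells. Il13 rose by 3.41 ± 0.61 on the log2 scale (SE, edgeR adjusted p = 0.0186, n = 5), higher in 4 of 5 mice and at 0 on both sides in mouse 34.
Among the other type 2 and related cytokines, Il4 gave a log2 difference of 1.205 ± 0.44 (SE, edgeR adjusted p = 0.266, n = 5) and Il10 one of 0.69 ± 0.25 (SE, edgeR adjusted p = 0.252, n = 5), and neither passed. Il5 was found in 1 Areg-positive T cell.

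The calls on Gata3 and Il1rl1 were lost without mouse 31 or mouse 33 and not without any 1 of the other 3 mice. Without mouse 31 the adjusted p by edgeR was 0.0667 for Gata3 and 0.0822 for Il1rl1, and without mouse 33 it was 0.0530 and 0.0685. When both sets were limited to cells with a Trac or Trbc UMI, Gata3 rose by 0.92 and Il1rl1 by 2.43 on the log2 scale, with edgeR adjusted p-values of 0.0270 and 0.0218. Il13 then missed the threshold at an adjusted p of 0.0646.

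Of the 12 tested genes in a list of cyclic AMP and glucocorticoid responses, 3 rose and none fell, with a median of 0.21 on the log2 scale: Crem, a transcriptional modulator of the cyclic AMP response, Rgs2, a regulator of G-protein signalling, and Sik1, a kinase induced through CREB. The share that rose over all genes tested was 0.54%. Rgs2 was at 427, 1279, 2342, 1299 and 540.3 CPM in the Areg-positive and at 493, 562, 1124, 587 and 292 CPM in the Areg-negative T cells. The exception was mouse 27, where it was lower. Rgs2 rose by 0.88 ± 0.16 (SE, edgeR adjusted p = 0.0172, n = 5), Crem by 0.89 ± 0.16 (SE, edgeR adjusted p = 0.0136, n = 5) and Sik1 by 0.73 ± 0.11 on the log2 scale (SE, edgeR adjusted p = 0.00628, n = 5). Crem was higher in 4 of 5 mice and Sik1 in 5 of 5. Without mouse 31 none of the 3 passed (edgeR adjusted p = 0.0764 for Crem, 0.102 for Rgs2 and 0.0608 for Sik1), and without mouse 33 Crem and Rgs2 did not (0.0738 and 0.0679).
A full cyclic AMP response element of the kind shown for Areg stood in the upstream window of 1 of the 35 genes called higher that matched a RefSeq promoter, Ell2, a transcription elongation factor, and in none of 27 called lower. That is 2.86% beside 1.77% of all genes. The Ell2 element, on the plus strand of chromosome 13, is shown with its surroundings, chr13:75707275-75707304:
Ell2: aagacgagacaTGACGTCAgataagattaa
It begins 198 bases before the start of Ell2. Ell2 itself was higher by 0.65 ± 0.12 on the log2 scale (SE, edgeR adjusted p = 0.0208, n = 5), and was named after its promoter was seen.

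Receptors for alarmins, prostaglandins and neuropeptides formed a list of 13, of which 12 were tested. Il1rl1 rose, as given above, Ramp3 is described further on, and 11 of the 12 fitted differences were positive with a median of 0.49 on the log2 scale. Calcrl, the receptor for calcitonin gene-related peptide and adrenomedullin, was at 67.5, 179, 306, 140 and 98.2 CPM in the Areg-positive and at 65.1, 163, 193, 43.7 and 64.2 CPM in the Areg-negative T cells. It was higher in 5 of 5 mice and did not pass (log2 difference 0.70 ± 0.19 SE, edgeR adjusted p = 0.108, n = 5). Ptger2, a prostaglandin E2 receptor, did not pass either, with 0.66 ± 0.20 (SE, edgeR adjusted p = 0.165, n = 5). Il18r1, the IL-18 receptor, was near equal at -0.03 ± 0.20 (SE, n = 5).

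Ramp3, Il7r, Tnfsf8 and Tnfrsf9 had been proposed as marks of these cells with results of these data known, so their levels are given as a description. They were part of the table fitted, and Ramp3 and Tnfsf8 are 2 of the 83 genes counted above, which supports nothing about them. Ramp3, which makes Calcrl a receptor for adrenomedullin, was at 31.5, 181, 36.6, 86.9 and 54.6 CPM, against 35.0, 79.5, 16.6, 43.3 and 47.7 CPM in the negative cells. Tnfsf8, the CD30 ligand, was at 265, 1237, 836, 276 and 513 CPM against 113, 728, 303, 80.7 and 220.2 CPM. Tnfrsf9, the costimulatory receptor 4-1BB, was at 378, 172, 503, 489.7 and 131 CPM against 308, 112, 295, 179 and 147 CPM.
Tnfsf8 was higher in 5 of 5 mice and Ramp3 and Tnfrsf9 in 4 of 5, all against Areg-negative T cells. Il7r, the IL-7 receptor, did not set the cells apart: it was at 72.0, 555, 459.7, 485 and 720.4 CPM in the positive and at 268, 664, 384, 537 and 712 CPM in the negative T cells, higher in 2 of 5 mice.

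**Figure D2:**
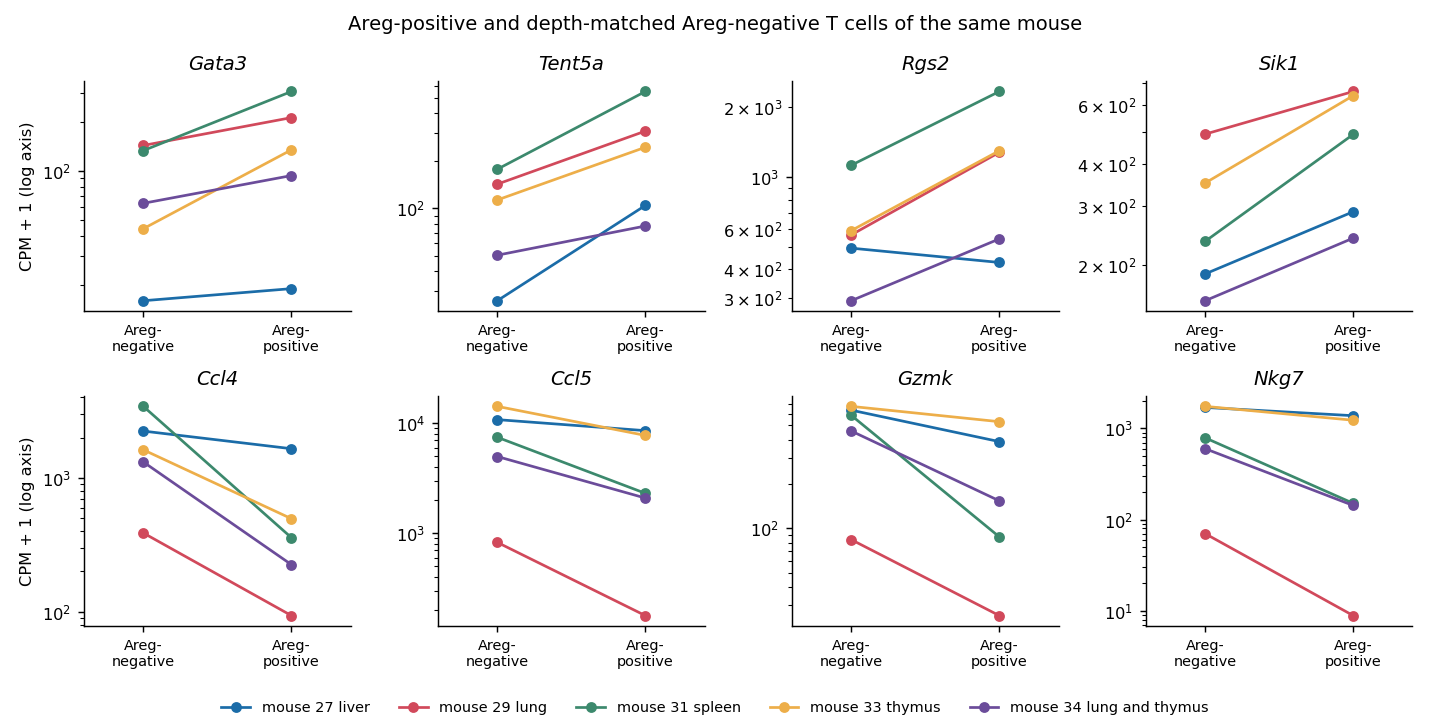
CPM + 1 (log axis, a scale per panel) of 8 genes in the summed Areg-negative and Areg-positive T cells of each mouse, joined by a line per mouse. Gata3, Tent5a and Sik1 rise along all 5 lines and Rgs2 along 4, while Ccl4, Ccl5, Gzmk and Nkg7 fall along all 5. All of them but Sik1 and Rgs2 were chosen for having 1 direction in every mouse.

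Cytotoxic genes were lower in the Areg-positive T cells. Of 8 tested genes of a cytotoxic granule list, 5 fell and none rose: Ccl5, Gzmk, Nkg7, Ctsw and Fasl. Over all genes tested, 0.434% fell. The median of the list was -1.01 on the log2 scale and no member had a positive difference. Of the same genes, Ccl5 and Nkg7 were the calls of the T helper 1 list, whose lineage factor Tbx21 did not pass at 0.22 ± 0.26 (SE, edgeR adjusted p = 0.874, n = 5). Ifng, the T helper 1 cytokine, did not pass at -0.53 ± 0.22 (SE, edgeR adjusted p = 0.38, n = 5).

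Ccl5, a chemokine of effector T cells, was at 8588, 177, 2309, 7769 and 2090.2 CPM in the Areg-positive and at 10819, 826, 7478, 14285 and 4994 CPM in the Areg-negative T cells. It fell by 1.25 on the log2 scale (SE 0.17, edgeR adjusted p = 0.00232, n = 5), and was lower in 5 of 5 mice although the nodules themselves differed far more.
Gzmk, granzyme K, was at 387, 24.6, 86.6, 528 and 153 CPM against 633, 82.9, 584, 672 and 457 CPM. It fell by 1.24 (SE 0.24, edgeR adjusted p = 0.0214, n = 5), lower in 5 of 5 mice. Nkg7, a granule protein, fell by 1.29 (SE 0.27, edgeR adjusted p = 0.033, n = 5), but missed the threshold without mouse 31 (0.106).
Ccl4, a chemokine for monocytes and T cells, was at 1651, 92.5, 356, 494 and 224 CPM against 2237, 386, 3423, 1620.0 and 1314 CPM. It fell by 1.93 on the log2 scale (SE 0.27, edgeR adjusted p = 0.00232, n = 5), with the widest gap in the spleen nodule of mouse 31.
Ms4a4b, a membrane protein of T cells, fell by 1.28 (SE 0.17, edgeR adjusted p = 0.00186, n = 5), Slamf7, a receptor of cytotoxic cells, by 1.82 (SE 0.25, edgeR adjusted p = 0.00232, n = 5), and Il31ra, the IL-31 receptor, by 1.29 on the log2 scale (SE 0.21, edgeR adjusted p = 0.00655, n = 5). For Slamf7 the levels of the groups did not overlap, with 4.92 to 22.5 CPM in the Areg-positive and 25.7 to 67.6 CPM in the Areg-negative T cells.

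Since the gate only asks for no Cd8 UMI, the comparison was repeated in cells with a Cd4 UMI. That left 20 to 86 positive cells a mouse and 21 called genes, 9 of which were among the 83. Ccl4, Nkg7, Gzmk and Ms4a4b were still called lower there, with Ccl4 at -1.98, Nkg7 at -1.28, Gzmk at -1.26 and Ms4a4b at -1.11. Ccl5 kept a difference of -1.46 but missed the threshold at an edgeR adjusted p of 0.0684. Cd83 and Sik1 remained called higher. Gata3 differed by 0.83 with an adjusted p of 0.544, Rgs2 by 0.74 with 0.233, and Tent5a by 0.78 with 0.495. In all, 24 of the 35 genes named by rule lost their call.

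Further genes that rose belonged to no list. Tent5a, a non-canonical poly(A) polymerase, was at 103, 308, 549.7, 243 and 76.4 CPM in the Areg-positive and at 25.0, 141, 176, 112 and 49.6 CPM in the Areg-negative T cells. It rose by 1.28 ± 0.15 on the log2 scale (SE, edgeR adjusted p = 0.000711, n = 5). Cd83, an activation marker of lymphocytes and dendritic cells, rose by 1.24 ± 0.15 (SE, edgeR adjusted p = 0.00104, n = 5).
Both genes were higher in 5 of 5 mice. So were Phlda1, Lrig1, an inhibitor of epidermal growth factor receptor signalling, Dusp10 and Dusp14, phosphatases of the MAP kinase pathway, Ahi1 and Slc12a2, whose log2 fold changes ran from 0.76 to 0.99. The NF-κB subunits Rel and Nfkb1 rose by 0.76 ± 0.10 and 0.59 ± 0.11 (SE, edgeR adjusted p = 0.00232 and 0.0208, n = 5), and the kinase Jak2 by 0.76 ± 0.11 (SE, edgeR adjusted p = 0.00465, n = 5). These 3 genes were chosen after their values were seen.
Of 14 genes in a costimulatory list, 13 were tested, and beside the proposed mark Tnfsf8, Tnfrsf4, the receptor OX40, rose by 0.69 ± 0.14 (SE, edgeR adjusted p = 0.0311, n = 5). Of 10 tested genes that mark regulatory T cells, Foxp3 aside, Tnfrsf4 and Ikzf2, the transcription factor Helios, rose and none fell, with a median of 0.66, beside 0.54% of all genes tested that rose. All 10 fitted differences were positive, 7 of them at an unadjusted edgeR p under 0.05. Since the gate asks only for no Foxp3 UMI, regulatory T cells could be among the Areg-positive cells, which was not tested. Ikzf2 rose by 0.69 ± 0.15 (SE, edgeR adjusted p = 0.035, n = 5).

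Chemokine genes moved both ways. Cxcl10, a ligand of CXCR3, was at 526, 673, 5907, 682 and 1124 CPM in the Areg-positive and at 468, 591, 2633, 351 and 437 CPM in the Areg-negative T cells. It was far higher in mouse 31 than elsewhere in both sets, and rose by 0.79 ± 0.15 on the log2 scale (SE, edgeR adjusted p = 0.0214, n = 5). Cxcl2, a neutrophil attractant of myeloid cells, rose by 1.56 ± 0.27 (SE, edgeR adjusted p = 0.0125, n = 5), with 187 of its 1999 UMIs in 1 cell, and gave -0.13 where a Cd4 UMI was required.
Ccl7, Cxcl1, C3 and Ccn1, which are products of myeloid and stromal cells, fell by 2.47, 1.36, 1.44 and 1.25 on the log2 scale. In the Areg-positive T cells they were seen in 13 to 54 cells each, and most of their UMIs came from mouse 29. Ifit2, an interferon-response gene, fell by 1.60 (SE 0.23, edgeR adjusted p = 0.00307, n = 5), with no overlap between the groups.

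**Figure D3:**
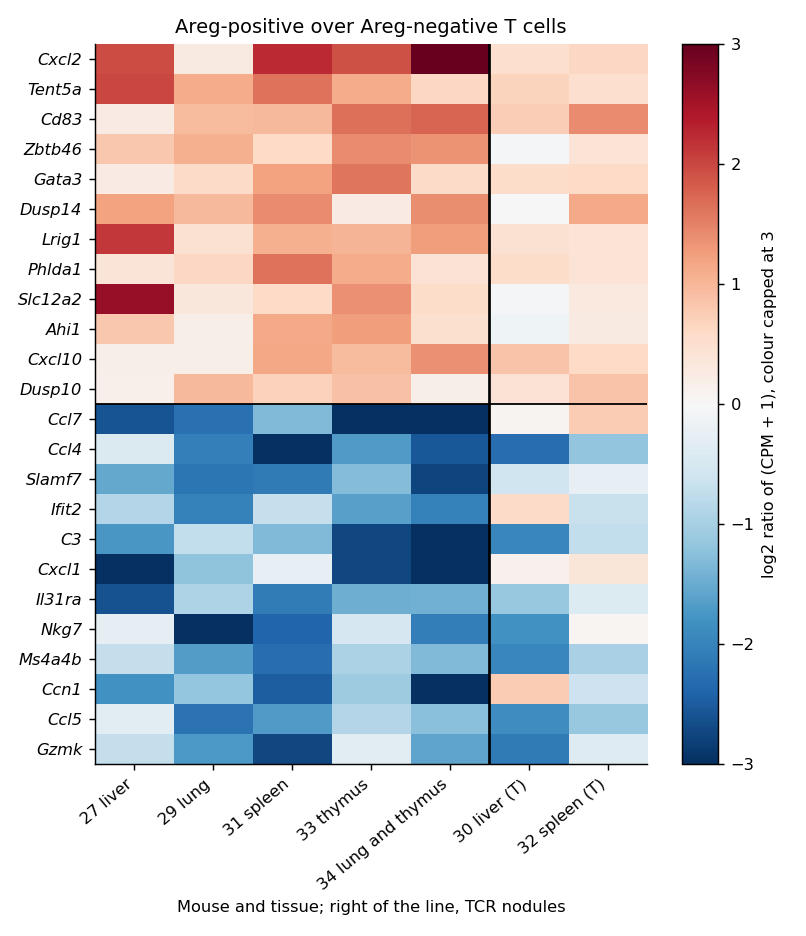
Log2 ratio of CPM + 1, Areg-positive over Areg-negative T cells, for the 12 genes named as higher (top) and the 12 named as lower (bottom), 1 column per mouse, with colours capped at 3. The 5 BCR nodules left of the line have 1 sign per gene because the genes were chosen for it, and the TCR nodules of mice 30 and 32 stand to the right.

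Of the 31 lists, 14 held a called gene. The immediate early list (Fos, Jun and others, 23 tested) had 1 call, Zfp36l1, and a median of 0.23, and the heat shock list had 1 of 10, Hspa1a, and a median of 0.32. In the tissue residency list, with 13 tested, Rgs2 and Crem rose, beside the proposed mark Ramp3. No gene was called among 14 of αβ T cell identity, 8 of T helper 17 cells, 11 of T follicular helper cells, 11 of naive and central memory cells, 11 inhibitory receptors, 10 of proliferation or 10 of glycolysis and hypoxia. The αβ T cell identity genes still leaned lower, with a median of -0.15 on the log2 scale and 3 of 14 fitted differences positive. Of the 14, 5 were at an unadjusted edgeR p under 0.05. Their summed level was 1508 to 3231 CPM in the Areg-positive and 1522 to 3423 CPM in the Areg-negative T cells, lower in 5 of 5 mice. Of the 7 other ligands of the amphiregulin family only Ereg and Hbegf were tested and neither passed. Tgfa was found in 5 Areg-positive T cells and Epgn in none.
Of the lists for other cells, S100a8 of neutrophils fell and Zbtb46, of classical dendritic cells, rose, while no gene was called among those of B cells, macrophages, mast cells, erythroid, stromal or epithelial cells. Summed macrophage genes were at 202 to 1246 CPM in the Areg-positive and 444 to 1362 CPM in the Areg-negative T cells, with Adgre1 at 0 in the first. Of 10 mast cell and basophil genes, 2 were found in the Areg-positive T cells, and Cpa3, Gata2 and Fcer1a were at 0. Erythroid genes had a list median of 1.86 on the log2 scale over 5 tested genes, 3 of them at an unadjusted p under 0.05. Their summed level was 4.499, 980.3, 1506, 8.22 and 43.7 CPM in the Areg-positive and 22.5, 627, 66.2, 16.5 and 38.5 CPM in the Areg-negative T cells, higher in 3 of 5 mice and most so in mouse 31. Neutrophil genes reached 2805 CPM and 6257 CPM, and were higher in the Areg-positive T cells in 0 of 5 mice. Epithelial genes reached 898 CPM and 492 CPM and were higher in 4 of 5 mice, with a list median of 0.89 over 4 tested genes. The part of these other cell types in the differences was not tested beyond leaving out the cells with 3 or more UMIs of epithelial, macrophage, mast cell or neutrophil genes, which did not cover erythroid genes, and after which 130 genes were called, 73 of them among the 83. S100a8 then turned to 0.15, but that limit counts S100a8 UMIs itself, so the change is no test of the gene.

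The Areg-positive T cells were not uniform. Gata3 was found in 290 of them and Ccl5 in 264, with both in 61 and neither in 463. In mouse 27, 80.6% held Ccl5 and 6.45% Gata3. In mouse 29 the order was the reverse, with 7.45% and 30.9%. Mouse 33 was high in both, with 58.0% and 31.7%, of which 37 cells held the pair.
Of the genes summed by Areg UMIs per cell, Tnfsf8 and Gata3 differed between cells with 1 Areg UMI and those with 3 or more by less than the spread between mice. Tnfsf8 was at a mean of 547 ± 458 CPM in the former and 639 ± 456 CPM in the latter, and Gata3 at 146 ± 82.6 and 148 ± 118 CPM (SD, n = 5 each). Ccl5 was at 4419, 201.2, 526, 7525 and 1211 CPM in the cells with 1 Areg UMI and at 13094, 152, 3524, 8307 and 3465 CPM in those with 3 or more, higher in 4 of 5 mice, with means of 2776 ± 3138 and 5708 ± 5049 CPM (SD, n = 5 each). The classes overlapped across mice and were not tested.

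**Figure D4:**
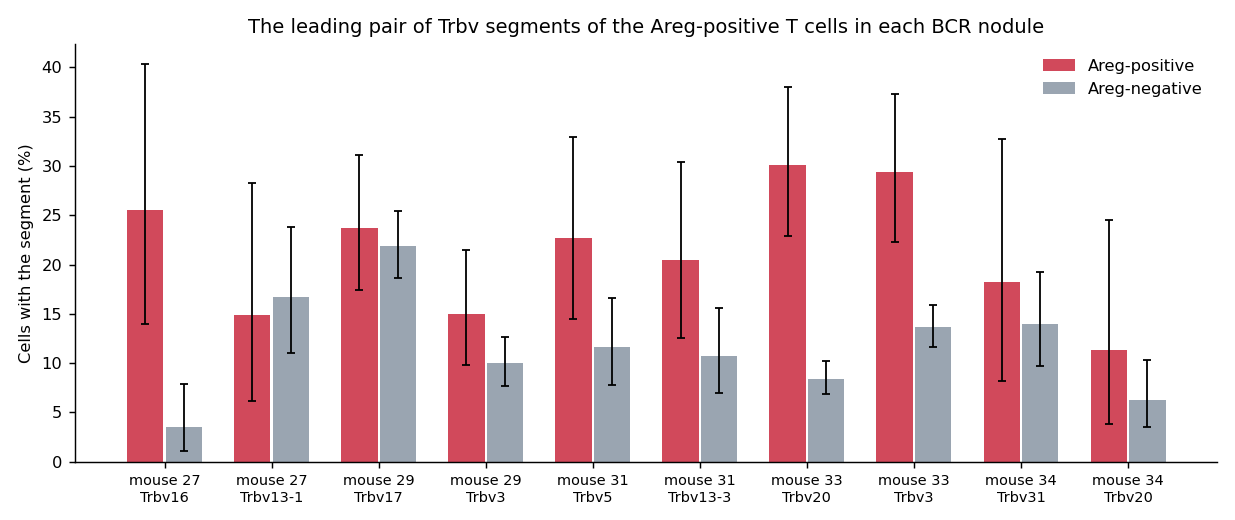
Share of Areg-positive (red) and Areg-negative (grey) T cells whose leading Trbv segment is the one named, in percent of the cells with any Trbv UMI, with exact 95% binomial intervals, for the first and second segment of the Areg-positive cells in each BCR nodule. Intervals stand apart for Trbv16 in mouse 27 and for Trbv20 and Trbv3 in mouse 33. The segments were picked as the commonest in the Areg-positive cells, which favours such gaps, and the intervals cover counting error only.

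The β-chain variable segments, read from the RNA counts because these nodules have no T cell receptor library here, showed repeated use in some nodules. The segments were picked as the commonest in the Areg-positive T cells, so their shares are a description. In mouse 33, Trbv20 was the leading segment of 46 of 153 cells with a Trbv UMI (30.1%, interval 22.9% to 38.0%), against 91 of 1082 Areg-negative cells (8.41%, 6.83% to 10.2%). Trbv3 followed with 45 of the 153 (29.4%), against 148 of 1082 (13.7%), and was the leading segment of the Areg-negative cells there. In mouse 27, Trbv16 was found in 12 of 47 cells (25.5%, 13.9% to 40.3%) against 5 of 144 (3.47%, 1.14% to 7.92%).
In mouse 29, Trbv17 led in 23.8% of the Areg-positive and 21.9% of the Areg-negative T cells, with intervals that overlapped. The same held for Trbv5 in mouse 31, 22.7% and 11.7%, and for Trbv31 in mouse 34, 18.2% and 14.0%.

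In mouse 33 the cells with Trbv20 held more type 2 transcripts than the other Areg-positive T cells of that nodule. Il13 was at 138 CPM (18 UMIs) against 22.2 CPM (16 UMIs), Il4 at 192 against 36.1 CPM, and Gata3 at 230.2 against 116 CPM. Ccl5 was at 4098 against 8432 CPM. In mouse 27 the 12 cells with Trbv16 held 182 of 355 Areg UMIs, at 5607 CPM against 911 CPM in the rest. Their Ccl5 was at 17438 against 7075 CPM, their Il10 at 801 against 73.7 CPM, and they held no UMI of Gata3 or Tnfsf8. Each of these is 1 nodule, with no replicate.

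Regulatory T cells are a known source of amphiregulin, and the Areg-positive T cells were set against Foxp3-positive T cells of 4 nodules, matched on depth. All 108 Foxp3-positive cells, with or without Areg, entered beside 108 matched Areg-positive cells, 13 to 36 a side and mouse. The Areg-positive cells stayed deeper in every mouse, with medians of 1664, 2204, 4203 and 2705 UMIs against 1404, 1925, 3837 and 2328 UMIs, and the part of this in the result was not tested. Of 2129 genes tested, 15 passed (0.705%), 10 higher (0.47%) and 5 lower (0.235%) in the Areg-positive cells.
Ifng rose by 3.69 ± 0.79 (SE, edgeR adjusted p = 0.0311, n = 4), at 279, 88.6, 162 and 21.1 CPM in mice 29, 31, 33 and 34 against 28.4, 0, 0 and 11.52 CPM. It rested on 45 and 3 UMIs. Ccl5 was at 72.9, 1682, 6142 and 1054 CPM against 28.4, 236, 430.1 and 369 CPM, and rose by 2.77 ± 0.33 on the log2 scale (SE, edgeR adjusted p = 0.000129, n = 4). Of its 733 UMIs in the Areg-positive cells, 236 came from 1 cell. Ccl5 was found in 27 of the 108 Areg-positive and 18 of the 108 Foxp3-positive cells.
Ms4a4b and Gramd3 rose by 2.64 ± 0.51 and 2.14 ± 0.44 (SE, edgeR adjusted p = 0.0191 and 0.0263, n = 4). Each was higher in 4 of 4 mice, which was a condition of their choice. Of the 64 Ms4a4b UMIs in the Areg-positive cells, 24 came from 1 cell. Both comparisons use Areg-positive T cells of the same nodules, so they are not independent.

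**Figure D5:**
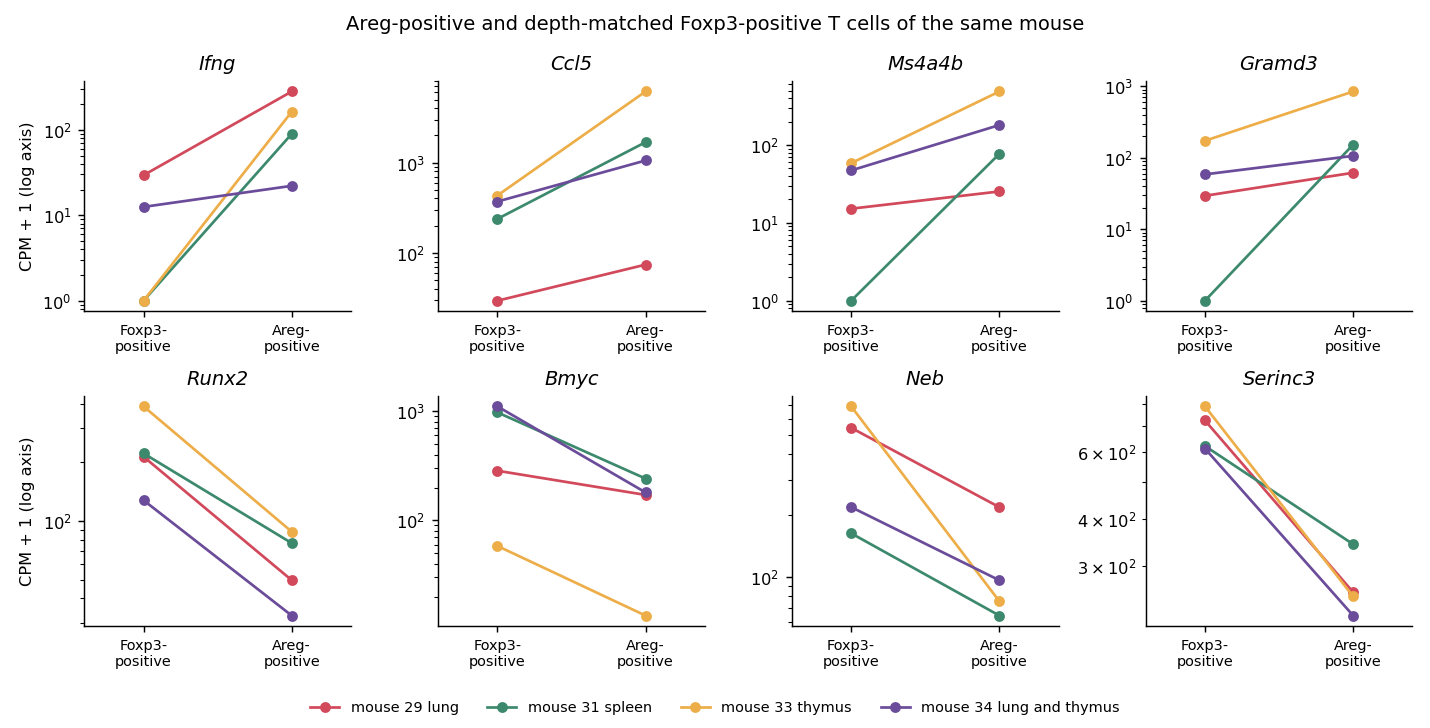
CPM + 1 (log axis, a scale per panel) of 8 genes in the summed Foxp3-positive T cells, with or without Areg, and the depth-matched Areg-positive T cells of 4 mice, joined by a line per mouse. Ifng, Ccl5, Ms4a4b and Gramd3 rise along all 4 lines, and Runx2, Bmyc, Neb and Serinc3 fall along all 4, because the genes were chosen for it.

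Lower in the Areg-positive T cells than in Foxp3-positive cells was Il2ra, the IL-2 receptor α chain, which fell by 2.65 (SE 0.50, edgeR adjusted p = 0.0175, n = 4). It was at 24.3, 25.3, 37.3 and 52.7 CPM against 99.4, 14.8, 731 and 288 CPM, with mouse 31 the exception. It was the 1 gene called among 8 tested that mark regulatory T cells, none of which had a positive difference. Runx2, a Runt-family transcription factor, fell by 1.80 (SE 0.35, edgeR adjusted p = 0.02, n = 4), from 127 to 387 CPM down to 31.6 to 87.0 CPM, with no overlap. Bmyc, Neb and Serinc3 fell by 1.77, 1.59 and 1.23 on the log2 scale.
Gata3 did not pass, at -0.18 ± 0.34 (SE, edgeR adjusted p = 0.941, n = 4), and Il1rl1 gave -1.52 ± 0.79 (SE, edgeR adjusted p = 0.643, n = 4), on 13 and 44 UMIs. Tnfrsf9, Calcrl and Ikzf2 were lower than in Foxp3-positive cells in 4 of 4 mice. Their means were 274, 116 and 673 CPM against 607, 239 and 1296 CPM, and Calcrl and Ikzf2 did not pass (edgeR adjusted p = 0.359 and 0.302, n = 4). Rgs2, Crem and Sik1 had means of 1397, 415 and 454 CPM against 1320, 369 and 495 CPM. Tnfsf8 and Ramp3 were higher in 3 of 4 mice. Retnlg and S100a8, neutrophil genes, were called higher, but 110 of 111 and 220 of 222 UMIs came from 1 Areg-positive cell of mouse 29. Without cells of that kind, 14 genes were called, 8 of them among the 15. This comparison called 1 gene with DESeq2 and, with no mouse block, 0 by edgeR (47 at an unadjusted p under 0.05).

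The TCR nodules were not used in either test and were set beside the main comparison as further samples. Of the 46 genes called higher in the BCR nodules, 39 were higher in the Areg-positive T cells of both mouse 30 and mouse 32, and none was lower in both. Of the 37 called lower, 24 were lower in both and 2 were higher in both. Over all 8517 genes, 19.5% were higher in both and 44.1% lower in both.
Gata3 was at 302 and 101.1 CPM in mice 30 and 32 against 204 and 66.5 CPM in matched Areg-negative cells, Rgs2 at 1212 and 468 against 717 and 242 CPM, and Ccl5 at 362 and 109.7 against 1317 and 241 CPM. Il13 was at 40.9 and 51.8 against 20.4 and 24.1 CPM. With 2 mice no test was made.
Most T cells with a receptor call there belonged to the dominant T cell clone of the nodule. Areg was found in 25.5% of clone cells (interval 23.6% to 27.5%) and 17.9% of cells of other clonotypes (13.9% to 22.5%) in mouse 30. In mouse 32 it was found in 25.6% (24.3% to 26.9%) and 28.99% (23.3% to 35.2%), with intervals that overlapped. Median depth in mouse 32 was 3921 UMIs in clone cells and 2969 UMIs in the others. A higher share in clone cells was thus seen in mouse 30 only.

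Limits of the main comparison bear on all its calls. With no mouse block edgeR called 0 genes (117 at an unadjusted p under 0.05). Without mouse 31 it called 24 genes and without mouse 33 it called 34, 23 and 29 of them among the 83, and 24 and 19 of the 35 named genes lost their call. Such sums alone do not tell fewer cells with a transcript from less of it per cell, and numbers of cells are given above for some genes only.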

How the data were processed

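Droplet single-cell RNA libraries of 7 nodules were used, from dissociated nodules after removal of dead cells. The matrices deposited by the authors give whole, unscaled UMI counts for every gene in each cell. Per the labels, the builds are GRCm38 and mm10, and the aligner is not given in the sources used here. Libraries held 7505 to 14098 cells and 19264039 to 123456962 UMIs, and every deposited cell had at least 500 UMIs. The study's limit of 10% mitochondrial UMIs was applied. No doublet caller was run. The gate bars B cell UMIs, which does not remove T cells caught with cells of other types. Receptor contig files, with deposited UMI counts, served only for receptor calls.

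Counts were summed per mouse and cell set. Comparison cells were drawn without replacement, up to 3 per member and within 0.25 log2 of total UMIs, and a mouse needed 10 members. edgeR 4.0.16 (R 4.3.3) was run with TMM, filterByExpr, a quasi-likelihood fit and Benjamini-Hochberg adjustment, with mouse as block because both sums came from the same nodule: the deviations of the sums of each mouse correlated at 0.313 to 0.883. SE is the log2 fold change over the root of F. DESeq2 1.42.0 was an alternative. Fits were tested on simulated data. Shares carry exact 95% (Clopper-Pearson) intervals. The labels give 1 RNA library per mouse. With the block, p-values set the difference between the sums of a mouse against how that difference varied between these mice.

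The members and gene lists were chosen with earlier results of these data known. Named genes were the 12 higher and 12 lower with the largest changes among those past an adjusted p of 0.05, of 1 direction in every mouse and at 20 CPM or more, up to 4 called genes per list, and fixed ligands, receptors, cytokines and lineage factors. Receptor segments, predicted models and ribosomal genes were not named.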

Additional observations from a re-analysis of the deposited data

Results flagged for a closer look

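Among the 5 BCR nodules, 6 of 29 values checked had 1 mouse apart from the others by Dixon's ratio, which flags about 1 in 20 groups by chance (critical value 0.71 for 5 samples). Cxcl10 in the Areg-positive T cells was highest in mouse 31, at 5907 CPM (ratio 0.889), and Ccl4 was highest in mouse 27, at 1651 CPM (ratio 0.742). The other 4 were highest in mouse 29: Ccl7 at 39.4 CPM (0.940), C3 at 155 CPM (0.909), Cxcl1 at 202 CPM (0.9505) and Ccn1 at 119 CPM (0.990). In mouse 29, the lung nodule, 33 of the 443 Areg-positive T cells held 3 or more UMIs of epithelial, macrophage, mast cell or neutrophil genes.

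Ccl7 and Cxcl1 were lower in the Areg-positive T cells of all 5 BCR nodules and higher in those of both TCR nodules. The mean log2 ratio in the BCR nodules differed from that in the TCR nodules by -3.14 for Ccl7 and -2.93 for Cxcl1, and the difference was not tested. In the TCR nodules both genes were near 0, with Ccl7 at 0.292 and 1.71 CPM and Cxcl1 at 0.585 and 3.64 CPM.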

How the results depend on the processing

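Against Areg-negative T cells, edgeR called 83 genes, and 326 with no filter on low counts, 154 with cells thinned to 1000 UMIs, 21 with a Cd4 UMI required, 130 without cells holding 3 or more UMIs of other cell types (chosen after seeing the data), 51 with DESeq2, and 0 with no replicate block. Leaving out a mouse gave 24 to 107. The block on mouse, whose pairs share a nodule, thus decides the calls. Against Foxp3-positive T cells, 15 genes became 51 with no filter, 50 unmatched, 4 thinned, 9 without γδ UMIs, 1 with DESeq2 and 0 with no replicate block, and 10 to 18 without a mouse. Requiring Cd4 left 1 mouse and was not run. The share of T cells with Areg, 19.5%, was 11.52% at 2 or more Areg UMIs and 17.3% to 20.9% without a mouse.

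For the 35 genes named against Areg-negative cells, 449 of 613 alternative fits kept direction and call, 161 lost the call and 3 turned: Cxcl2 gave -0.13 with Cd4 required, and S100a8 0.073 with Trac or Trbc required and 0.15 without cells of other types. The limit behind the value of 0.15 counts S100a8 UMIs itself. With a block on mouse, 5 kept their call under each alternative fitted: Ccl4, Ccl7, Cd83, Gzmk and Ms4a4b. Of the 11 named against Foxp3-positive cells, Ccl5 did so, though in the main fit 1 Areg-positive cell held 236 of its 733 UMIs. The causes were not tested. Depth limits all cytokine calls, several of which rest on under 60 UMIs.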
